A study of Homo sapiens with 4 samples.

Results

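The 48 genes described here encode collagens, other proteins of the extracellular matrix, and the enzymes that hydroxylate and crosslink them. They were taken by symbol from a named list, matched to NCBI Gene IDs, and looked up among the 17490 genes listed in at least 1 of 4 deposited expression tables. All 48 symbols had a Gene ID. A gene without a row in a table was entered at 0. By role, the list holds 5 fibrillar collagens, 12 basement membrane genes, 8 other collagens, 6 genes of fibronectin and microfibril-associated glycoproteins, 6 matricellular genes, 3 interstitial proteoglycans and 8 genes of crosslinking and hydroxylation enzymes.

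The extracellular matrix is the secreted scaffold around cells. Fibrillar collagens form the tensile fibres of stroma, whereas basement membranes are thin sheets of laminin, type IV collagen, nidogen and heparan sulfate proteoglycan that lie under epithelia. Lysyl hydroxylases of the PLOD family modify collagen inside the cell, and lysyl oxidases of the LOX family crosslink collagen and elastin outside it. In lung tissue most interstitial matrix is made by fibroblasts, and epithelial cells contribute mainly to the basement membrane.

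Messenger RNA was profiled in 4 libraries of 2 human lung adenocarcinoma lines, which carry activating EGFR mutations. For H1975 the groups are osimertinib-sensitive and osimertinib-resistant cells, osimertinib being an irreversible inhibitor of the EGFR kinase. For HCC827 they are gefitinib-sensitive and gefitinib-resistant cells, gefitinib being a reversible inhibitor. Each of these 4 groups had 1 library, so differences within a line lack a replicate check and carry no p-value; the labels do not state how resistance arose or whether drug was present at harvest.

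The tables give FPKM, a level scaled by transcript length and library size, and expected counts, which are estimated reads per gene. Summed expected counts came to 22145163 in sensitive and 22217897 in resistant H1975, and to 10934558 in sensitive and 11034837 in resistant HCC827. Of the listed genes, 55.1% to 69.8% had whole expected counts; among the matrix genes, 7 in H1975 and 2 in HCC827 did not. Every ratio is resistant over sensitive within 1 line. A gene was considered where at least 1 library of the pair had 1 FPKM and 20 counts. A call of higher or lower needed a difference of 2-fold or more and a 95% interval of the log2 ratio that left out 0. Brackets hold these intervals, which cover counting error only. Estimated transcript lengths differed between the lines (the THBS1 length was 5900 bases in sensitive H1975 and 7253 in sensitive HCC827). Differences of annotation and of the transcripts used cannot be told apart here, so levels set side by side across lines are descriptions.

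The epithelial label was checked first. EPCAM, an epithelial adhesion molecule, had 150 and 2.85 FPKM in sensitive and resistant H1975 and 207 and 29.9 FPKM in HCC827. The keratin KRT7 had 1140 and 193 FPKM in H1975 (5.83-fold lower) and 841 and 329 FPKM in HCC827 (2.66-fold lower). KRT18, another keratin, had 503 and 354 FPKM in H1975 (not called) and 1872 and 703 FPKM in HCC827 (2.77-fold lower). Others on the epithelial list, chosen after their values were seen, were lower by far more in resistant H1975: KRT19 had 481 and 6.82 FPKM in that line (69.8-fold lower), and the cell adhesion molecule CDH1 had 85.6 and 0.73 FPKM (113-fold lower). In HCC827, KRT19 had 1741 and 297 FPKM and CDH1 189 and 46.3 FPKM. NKX2-1, the lung lineage factor, had 7.66 and 5.97 FPKM in H1975 and 25.4 and 0.08 FPKM in HCC827. The 8 fibroblast and mural markers summed to 3.97 and 3.43 FPKM in H1975 and 3.52 and 3.93 FPKM in HCC827, most of it from ACTA2 and PDGFRL. Their defining members were lower still: PDGFRB had 0.33 and 0.90 FPKM in H1975 and 0 and 0.05 FPKM in HCC827, PDGFRA had at most 2 counts, and THY1 was listed in 1 library with 1 count. The 6 endothelial markers summed to 0.67 to 1.46 FPKM, with PECAM1 at most 0.70 FPKM and CDH5 the highest at 1.01 FPKM in sensitive and 0.11 FPKM in resistant H1975, and the 8 blood cell markers to 85.1 to 107 FPKM, with PTPRC at most 0.50 FPKM. CSF1R, on the same list, had 6.09 and 1.72 FPKM in H1975. CDH5 and CSF1R were also chosen after their values were seen; both were called lower in H1975. CD68, which made most of the blood cell sum, had 74.3 to 100 FPKM, and CD3E and MS4A1 were listed in no library.

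The 2 lines made different matrix transcripts before any comparison of resistance. At a level of 1 FPKM, 20 of the 48 genes were present in all 4 libraries, 23 in at least 1 library of each line, 10 in H1975 only, 4 in HCC827 only and 11 in no library. Those confined to H1975 at this level were COL1A2, COL5A1, COL7A1, COL8A1, COL13A1, COL16A1, FBLN1, SPARC, LOX and LOXL1. Those confined to HCC827 were COL4A1, COL4A2, THBS2 and LUM. The remaining 11, under 1 FPKM throughout, were COL3A1, COL5A2, COL6A3, LAMA4, NID1, NID2, FBN1, FBN2, POSTN, DCN and LOXL4.

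**Figure D1:**
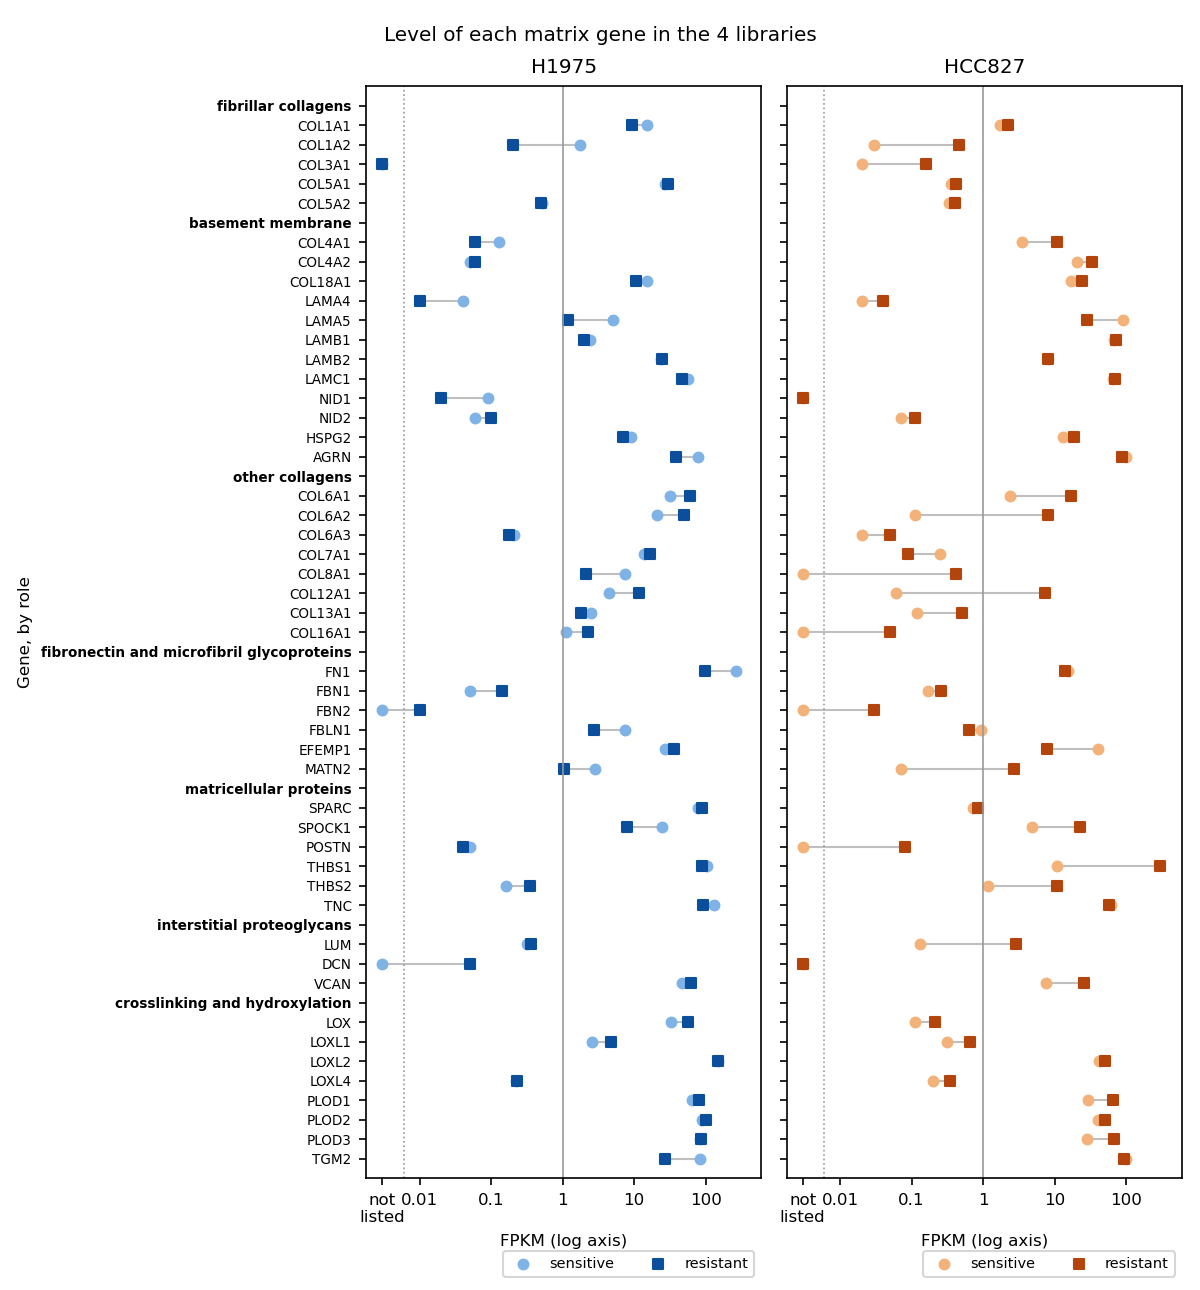
FPKM of each of the 48 genes on a log axis, grouped by role, with circles for the sensitive and squares for the resistant library of each line; points left of the dotted line are genes not listed, and the solid line marks 1 FPKM. Fibrillar collagens reach 30.1 FPKM in H1975 and 2.24 FPKM in HCC827. The widest gaps between circle and square lie among the other collagens of HCC827, followed by MATN2 in that line.

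The matrix genes together held 0.328% of the summed FPKM in sensitive and 0.284% in resistant H1975, and 0.18% in sensitive and 0.268% in resistant HCC827. Fibronectin took the largest part of any gene in sensitive H1975 (17.8% of the matrix sum), and thrombospondin THBS1 in resistant HCC827 (25.4%). Matricellular genes held 0.0185% and 0.0892% of the FPKM in sensitive and resistant HCC827, whereas basement membrane genes held 0.0897% and 0.0814%. Single genes made most of the matricellular sum in HCC827: TNC 78.1% in the sensitive and THBS1 76.1% in the resistant library. In H1975 the fibronectin and microfibril group went from 0.0664% to 0.0298%, and the other collagens from 0.0178% to 0.0317%. FN1 alone made 87.8% and 70.8% of the fibronectin and microfibril sum in sensitive and resistant H1975.

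**Figure D2:**
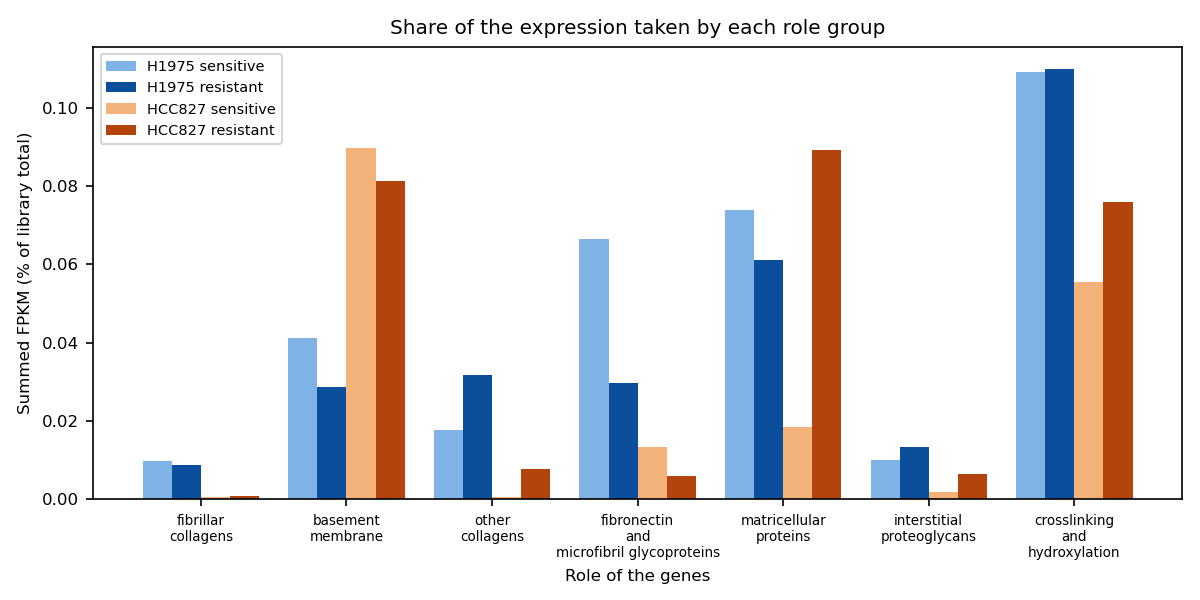
Summed FPKM of each role group as a percentage of the library's total FPKM, with 1 bar for each of the 4 libraries. The matricellular bar of resistant HCC827 (0.0892%) stands above that of sensitive HCC827 (0.0185%), and the crosslinking and hydroxylation bars of H1975 are level (0.109% and 0.11%).

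In H1975, 33 of the 48 genes were considered: 2 were called higher (6.06%), 9 lower (27.3%) and 22 neither. Over all 11872 genes considered, 3.21% were called higher and 8.56% lower. The median log2 ratio of the 33 was −0.19, against 0.00 over all genes. In HCC827, 27 genes were considered: 12 were called higher (44.4%), 2 lower (7.41%) and 13 neither, where 7.05% and 11% of all 11890 genes were called higher and lower. Their median was 0.46, against 0.00 over all genes. Genes that pass the filter through their high library alone had to differ; these were COL1A2 among the 9 lower in H1975, and COL6A2, COL12A1, MATN2 and LUM among the 12 higher in HCC827. In bulk libraries, more cells making a transcript and more transcript per cell cannot be told apart. Epithelial markers differed along with these counts (5 of 8 considered were called lower in H1975, and 9 of 10 in HCC827), and their part in the matrix results was not tested.

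**Figure D3:**
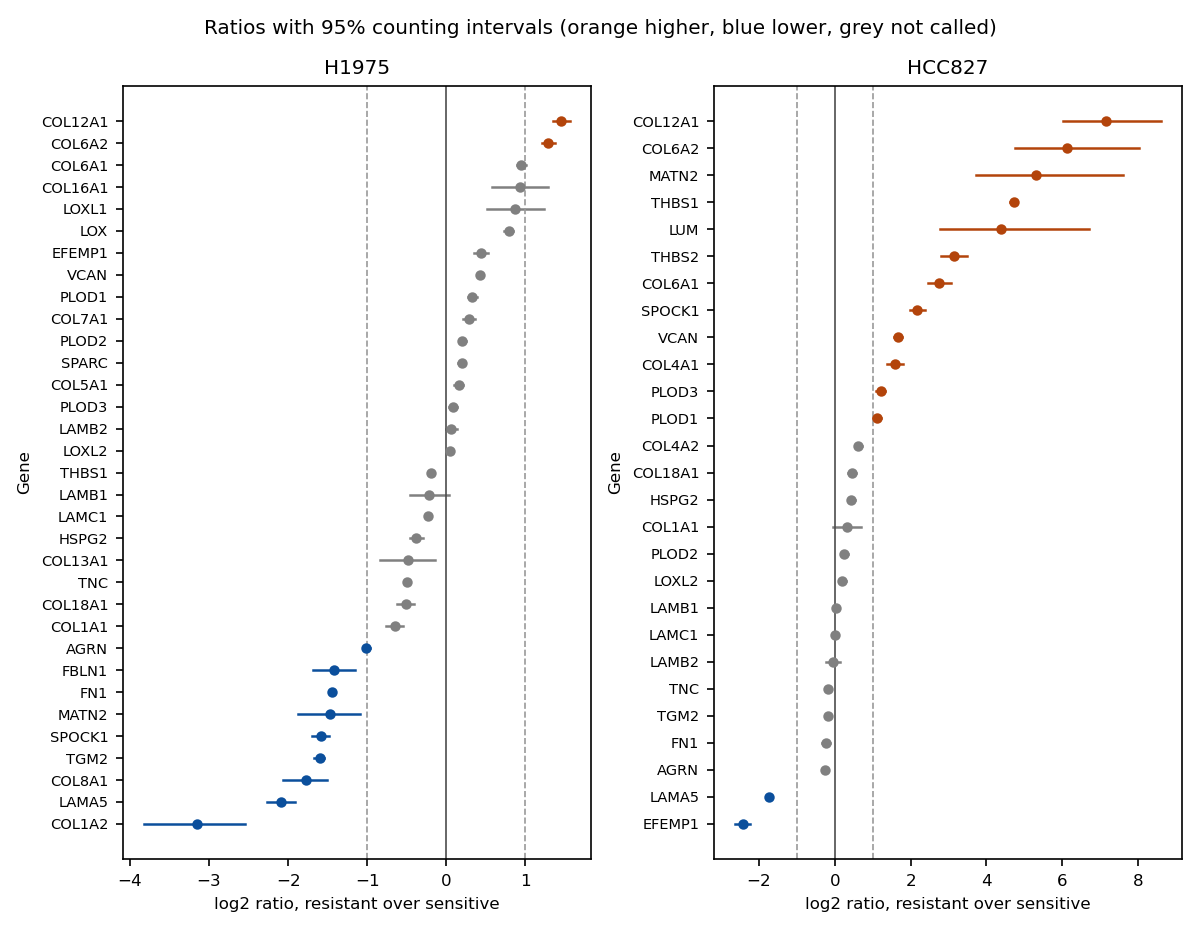
Log2 ratio of resistant over sensitive for the 33 genes considered in H1975 and the 27 considered in HCC827, with 95% counting intervals; dashed lines mark 2-fold, and the horizontal scales differ. Orange points (2 and 12) were called higher, blue points (9 and 2) lower, and COL12A1 is at the top of both panels.

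Of the fibrillar collagens, which assemble into the banded fibres of stroma, the single chains COL5A1 and COL1A1 had their higher levels in H1975. COL5A1, the type V chain that limits fibril diameter, had 27.3 and 30.1 FPKM in sensitive and resistant H1975 and 0.36 and 0.42 FPKM in HCC827. COL1A1, the major chain of type I collagen, had 14.9 and 9.41 FPKM in H1975 (log2 ratio −0.65 [−0.76, −0.55], not called) and 1.73 and 2.24 FPKM in HCC827 (0.32 [−0.04, 0.69], not called). Neither gene differed by 2-fold within a line where it was considered.

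COL1A2, the partner chain of COL1A1 in type I collagen, had 1.77 and 0.20 FPKM in H1975, from 214 and 24 counts, and was 8.87-fold lower in the resistant library (−3.15 [−3.82, −2.54]). In HCC827 it had 0.03 and 0.46 FPKM, from 2 and 28 counts, a log2 ratio of 3.74 [1.75, 6.85] at a level too low to be considered. The FPKM ratio of COL1A1 to COL1A2 was therefore 8.43 in sensitive and 47.0 in resistant H1975, and 57.7 and 4.87 in HCC827. COL1A1 exceeded its partner in all 4 libraries. COL5A1 exceeded COL5A2 by 52.5 and 60.2 times in H1975, with COL5A2 at 0.52 and 0.50 FPKM. COL3A1, the type III chain typical of fibroblasts, was not listed in H1975 and had 1 and 10 counts in HCC827.

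Among basement membrane genes, the laminin alpha chain LAMA5 was called lower in both lines. LAMA5, whose product forms laminins with a beta and a gamma chain in epithelial basement membranes, had 5.06 and 1.2 FPKM in sensitive and resistant H1975 (1301 and 304 counts) and 89.4 and 28.0 FPKM in HCC827 (11330 and 3578 counts). It was 4.25-fold lower in resistant H1975 (−2.09 [−2.27, −1.91]) and 3.32-fold lower in resistant HCC827 (−1.73 [−1.79, −1.68]). Both resistant libraries lay below their sensitive partners.

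Its partner chains did not share that difference. LAMC1, the gamma chain, had 55.8 and 47.1 FPKM in H1975 (−0.23) and 65.7 and 68.9 FPKM in HCC827 (0.01). The beta chains among the matrix genes, LAMB1 and LAMB2, divided by line. LAMB2 had 23.9 and 24.7 FPKM in H1975 and 8.07 and 8.16 FPKM in HCC827. LAMB1 had 2.40 and 2.01 FPKM in H1975 and 67.0 and 71.7 FPKM in HCC827. The FPKM ratio of LAMB1 to LAMB2 was 0.1 and 0.0814 in H1975 and 8.3 and 8.78 in HCC827. Between LAMB1 and LAMB2, the higher was thus LAMB2 in both H1975 libraries and LAMB1 in both HCC827 libraries. The beta chain LAMB3, from a further list and chosen after its values were seen, had 193 and 131 FPKM in H1975. It had 44.8 and 26.2 FPKM in HCC827. LAMA4, a laminin chain of vessels and mesenchyme, did not exceed 0.04 FPKM.

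Of type IV collagen, the network-forming collagen of basement membranes, the chains COL4A1 and COL4A2 were an HCC827 feature. COL4A2 had 20.7 and 32.9 FPKM in sensitive and resistant HCC827 and 0.05 and 0.06 FPKM in H1975. COL4A1 had 3.44 and 10.6 FPKM in HCC827, from 246 and 773 counts, and was 3.0-fold higher in the resistant library (1.58 [1.37, 1.80]). COL4A2 was 1.53-fold higher there (0.61 [0.52, 0.71]) and not called. The FPKM ratio of COL4A1 to COL4A2 was 0.166 in sensitive and 0.322 in resistant HCC827, so the COL4A2 transcript remained the more abundant per length. In H1975 the genes had at most 19 counts, too few to read their ratio.

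COL4A1 and COL4A2 lie head to head on chromosome 13 and are transcribed away from a common promoter region. The bases between their start sites are shown because both genes were near 0 in H1975 and present in HCC827. The 126 bases are from RefSeq on GRCh38.p14, chr13:110307158-110307283, plus strand, 5′ to 3′, and end just before the COL4A2 start; capitals mark a CCAAT box and a GC box (GGGCGG), which do not overlap.
COL4A1-COL4A2: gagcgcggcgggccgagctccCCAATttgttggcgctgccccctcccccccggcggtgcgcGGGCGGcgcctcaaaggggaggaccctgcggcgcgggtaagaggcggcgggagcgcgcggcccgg
Searched on both strands of the 300-base windows around gene starts (250 bases before and 50 after), CCAAT occurred in 35.7% of 27305 promoters and in 9 of the 34 matrix genes that had a window, and GGGCGG in 44.6% and in 26 of 34. These matches describe letters in a window.

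Of the remaining basement membrane genes, AGRN was at the threshold. AGRN encodes agrin, a heparan sulfate proteoglycan, and had 76.8 and 37.9 FPKM in H1975, a 2.01-fold difference (−1.01 [−1.05, −0.96]) called lower, with an interval that reaches under 2-fold. In HCC827 it had 100 and 86.5 FPKM (−0.27). HSPG2, which encodes perlecan, had 9.05 and 6.89 FPKM in H1975 and 13.2 and 18.7 FPKM in HCC827, and COL18A1, the source of endostatin, had 15.0 and 10.5 FPKM and 16.9 and 24.2 FPKM. Both had log2 ratios below 0 in H1975 (−0.38 and −0.51) and above 0 in HCC827 (0.44 and 0.46), none of which was called. The nidogens NID1 and NID2, which link laminin to type IV collagen, did not exceed 0.11 FPKM in any library.

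Among the genes considered, the other collagens held the highest ratios in both lines. COL12A1, a collagen that decorates the surface of fibrils, had 4.38 and 11.6 FPKM in sensitive and resistant H1975, from 1066 and 2904 counts, and 0.06 and 7.39 FPKM in HCC827, from 6 and 895 counts. Each resistant library was above its sensitive partner, by 2.74-fold in H1975 (1.45 [1.35, 1.56]) and 142-fold in HCC827 (7.15 [6.02, 8.6]). The HCC827 ratio rests on 6 counts in the sensitive library, and on the log2(FPKM + 1) scale, which understates changes from low levels, the difference was 2.98.

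Type VI collagen, which forms beaded microfilaments next to basement membranes, showed higher values for 2 of its 3 listed chains. COL6A1 had 31.5 and 60.4 FPKM in H1975 and 2.37 and 16.7 FPKM in HCC827. It was 1.93-fold higher in resistant H1975 (0.95 [0.89, 1.01]), just short of a call, and 6.76-fold higher in resistant HCC827 (2.76 [2.47, 3.06]). COL6A2 had 20.7 and 50.3 FPKM in H1975 (2.45-fold, 1.29 [1.21, 1.38]) and 0.11 and 8.02 FPKM in HCC827, from 4 and 295 counts (70.3-fold, 6.14 [4.76, 8.02]; 3.02 on the log2(FPKM + 1) scale). COL6A1 and COL6A2 are adjacent on chromosome 21 with no coding gene between them.

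COL6A3, the chain that completes the classical type VI trimer, did not exceed 0.21 FPKM in any library. Its FPKM was 0.00666 and 0.00298 times that of COL6A1 in H1975, and 0.00844 and 0.003 times in HCC827. The COL6A1 to COL6A2 ratio was 1.52 and 1.2 in H1975, and 21.5 and 2.08 in HCC827.

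COL8A1, a short-chain collagen of vessel walls, went the other way in H1975, with 7.37 and 2.13 FPKM (502 and 145 counts, 3.44-fold lower, −1.78 [−2.06, −1.51]). In HCC827 it was not listed in the sensitive library and had 14 counts in the resistant one. COL7A1, the anchoring fibril collagen, had 13.6 and 16.4 FPKM in H1975 and at most 0.25 FPKM in HCC827. COL16A1 had 1.10 and 2.24 FPKM in H1975 (1.91-fold, 0.93 [0.58, 1.29]) and the transmembrane collagen COL13A1 2.51 and 1.79 FPKM (−0.49); neither was called. COL16A1 had non-whole counts, so part of its reads was divided among genes.

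Fibronectin, the glycoprotein on which cells assemble much of their matrix, had the highest level of the 48 genes in sensitive H1975. TGFBI, from a further list of matrix genes and chosen after its values were seen, was higher there, at 1314 FPKM. FN1 had 266 and 96.2 FPKM in H1975, from 49848 and 18146 counts, and was 2.73-fold lower in the resistant library (−1.45 [−1.47, −1.42]). In HCC827 it had 15.4 and 13.8 FPKM (−0.23 [−0.34, −0.12]) and was not called. FBLN1, the elastic fibre and basement membrane protein fibulin-1, had 7.51 and 2.77 FPKM in H1975 (2.67-fold lower, −1.42 [−1.69, −1.15]) and stayed under 1 FPKM in HCC827.

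EFEMP1, a fibulin family member, was lower in HCC827 instead. It had 26.6 and 35.8 FPKM in H1975 (0.44, not called) and 40.7 and 7.81 FPKM in HCC827, from 1366 and 265 counts (5.41-fold lower, −2.43 [−2.63, −2.24]). MATN2, the filament-forming protein matrilin-2, had 2.86 and 1.03 FPKM in H1975 (215 and 77 counts, 2.78-fold lower, −1.47 [−1.87, −1.09]) and 0.07 and 2.69 FPKM in HCC827 (3 and 124 counts, 39.4-fold higher, 5.30 [3.72, 7.60]). Its calls were thus in opposite directions. The fibrillins FBN1 and FBN2, which build microfibrils, did not exceed 0.26 FPKM.

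Matricellular proteins, which sit in the matrix and modulate cell behaviour, contained the gene with the highest level of the list. THBS1, which encodes thrombospondin-1, an activator of latent TGF-beta, had 103 and 89.4 FPKM in H1975 (−0.19 [−0.23, −0.16], not called). In HCC827 it had 10.7 and 292 FPKM, from 856 and 23611 counts, and was 26.3-fold higher in the resistant library (4.72 [4.62, 4.82]). Resistant HCC827 stood above the other 3 libraries, and sensitive HCC827 below them.

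THBS2, a related thrombospondin, had 0.16 and 0.35 FPKM in H1975, from 21 and 47 counts, and 1.18 and 10.8 FPKM in HCC827, from 77 and 712 counts (8.82-fold higher, 3.14 [2.80, 3.50]). Its H1975 ratio (1.17 [0.40, 1.99]) had an interval above 0 at a level too low to be considered. SPOCK1, a secreted proteoglycan of the SPARC family, had 24.2 and 7.95 FPKM in H1975 (3.01-fold lower, −1.59 [−1.70, −1.48]) and 4.82 and 22.6 FPKM in HCC827 (4.51-fold higher, 2.17 [1.98, 2.37]). Its calls, too, were in opposite directions. SPARC had 78.9 and 89.5 FPKM in H1975 and 0.71 and 0.85 FPKM in HCC827. The tenascin TNC had 132 and 91.5 FPKM in H1975 and 62.0 and 57.3 FPKM in HCC827 and was called in neither. POSTN, which encodes the stromal protein periostin, did not exceed 3 counts.

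The promoters of THBS1, THBS2 and COL12A1 are shown because these genes were among those higher in resistant HCC827 and hold the letters CATTCC, or GGAATG on the other strand, the core recognised by TEAD factors. They are the 250 bases before each start, from RefSeq on GRCh38.p14, 5′ to 3′ on the gene's strand; capitals mark the matches. THBS1 is chr15:39580829-39581078, plus strand; THBS2 is chr6:169253847-169254096, minus strand; COL12A1 is chr6:75206054-75206303, minus strand.
THBS1: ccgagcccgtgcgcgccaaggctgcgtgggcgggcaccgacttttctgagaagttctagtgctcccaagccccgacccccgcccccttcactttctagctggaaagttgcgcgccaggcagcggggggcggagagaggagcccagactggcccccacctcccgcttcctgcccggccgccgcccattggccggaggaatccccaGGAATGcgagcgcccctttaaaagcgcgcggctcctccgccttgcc
THBS2: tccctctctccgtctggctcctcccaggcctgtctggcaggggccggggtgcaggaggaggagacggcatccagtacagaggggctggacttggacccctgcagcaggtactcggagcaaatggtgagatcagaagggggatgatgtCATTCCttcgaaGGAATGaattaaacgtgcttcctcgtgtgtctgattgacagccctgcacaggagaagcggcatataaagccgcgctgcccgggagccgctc
COL12A1: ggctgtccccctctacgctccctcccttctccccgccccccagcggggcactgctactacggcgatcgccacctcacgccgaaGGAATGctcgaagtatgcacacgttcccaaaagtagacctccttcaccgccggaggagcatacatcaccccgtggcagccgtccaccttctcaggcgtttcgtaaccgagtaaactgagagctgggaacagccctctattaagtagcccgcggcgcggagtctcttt
The match began 46 bases before the start in THBS1, 103 and 91 bases before it in THBS2, and 167 bases before it in COL12A1. Over the 300-base windows, 14% of the 27305 promoters and 5 of 34 matrix genes held these letters. Of the 12 genes called higher in HCC827, 8 had a window and 3 of these held them; SPARC and FBN1 were the others. The motif was picked after the ratios and sequences had been seen, and a match is a description of letters, not of binding.

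Of the 3 interstitial proteoglycans, VCAN and LUM were called higher in resistant HCC827, LUM from 3 counts in the sensitive library. VCAN, which encodes the large hyaluronan-binding proteoglycan versican, had 45.9 and 61.3 FPKM in H1975 (0.43, not called) and 7.48 and 25.5 FPKM in HCC827, from 841 and 2804 counts (3.18-fold higher, 1.67 [1.56, 1.78]). LUM, which encodes the collagen-binding proteoglycan lumican, had 0.32 and 0.36 FPKM in H1975 and 0.13 and 2.83 FPKM in HCC827, from 3 and 66 counts (21.0-fold higher, 4.39 [2.78, 6.71]). DCN, which encodes decorin and neighbours LUM on chromosome 12, was not listed in HCC827 and had 0 and 2 counts in H1975.

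Among crosslinking and hydroxylation enzymes, TGM2 was called lower in H1975 (1 of 7 considered, against 8.56% of all genes), and PLOD1 and PLOD3 higher in HCC827 (2 of 5, against 7.05%). The lysyl hydroxylases had 64.2 and 80.2 FPKM (PLOD1), 87.1 and 99.5 FPKM (PLOD2) and 82.8 and 87.1 FPKM (PLOD3) in H1975, with log2 ratios of 0.33, 0.20 and 0.09. In HCC827, PLOD1 had 29.0 and 65.6 FPKM and was 2.18-fold higher in the resistant library (1.12 [1.01, 1.23]). PLOD3, which also glycosylates collagen, had 28.4 and 68.0 FPKM and was 2.31-fold higher (1.21 [1.09, 1.32]). PLOD2, which hydroxylates the ends of collagen chains, had 40.4 and 49.9 FPKM (0.25 [0.16, 0.34]). The FPKM ratio of PLOD2 to PLOD1 was 1.36 and 1.24 in H1975 and 1.39 and 0.76 in HCC827, so PLOD1 was above PLOD2 per length in resistant HCC827; by expected counts, without scaling by length, that ratio was 1.01.

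No lysyl oxidase was called, but only LOXL2 was considered in both lines. LOX and LOXL1 were considered in H1975 only, and LOXL4 in neither line. LOX had 32.2 and 56.0 FPKM in H1975 (1.72-fold, 0.79 [0.73, 0.84], not called) and 0.11 and 0.21 FPKM in HCC827, from 6 and 11 counts. LOXL2, a family member that also crosslinks type IV collagen, had 146 and 149 FPKM in H1975 and 42.1 and 50.1 FPKM in HCC827, with log2 ratios of 0.05 and 0.19. LOXL1 had 2.54 and 4.72 FPKM in H1975 (0.87 [0.51, 1.23]) and LOXL4 did not exceed 0.34 FPKM. Transglutaminase 2 (TGM2), which crosslinks matrix proteins through glutamine and lysine, had 82.4 and 27.1 FPKM in H1975 (3.04-fold lower, −1.60 [−1.67, −1.54]) and 98.4 and 91.7 FPKM in HCC827 (−0.17).

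Set side by side, 23 of the matrix genes were considered in both lines. COL6A2 and COL12A1 were higher in both (8.7% of the 23, against 0.985% of 10961 genes), LAMA5 was lower in both (4.35%, against 3.49%), and MATN2 and SPOCK1 were called in opposite directions (8.7%, against 0.775%). A further 9 were called in neither line. COL6A2, COL12A1 and MATN2 passed the filter in HCC827 through the resistant library alone, so they had to differ there. The shared higher genes were 100% of those higher in H1975 and 16.7% of those higher in HCC827; the shared lower gene was 11.1% and 50% of the lower genes. The 100% and the 50% rest on 2 genes each. Over all genes, the 108 shared higher genes compare with 381 higher in H1975 and 838 in HCC827, and the 382 shared lower genes with 1016 and 1302. Both of the genes higher in both lines are collagens outside the fibrillar and basement membrane groups.

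**Figure D4:**
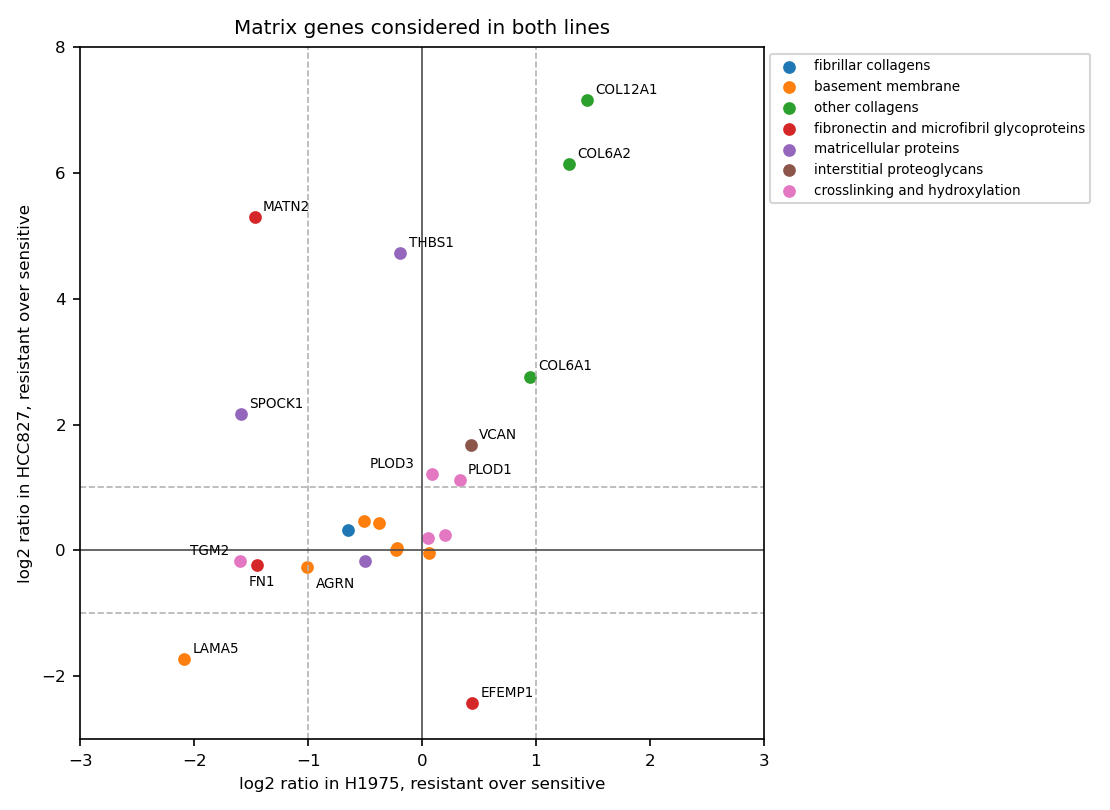
Log2 ratios of resistant over sensitive in H1975 (horizontal) and HCC827 (vertical) for the 23 matrix genes considered in both lines, coloured by role, with dashed lines at 2-fold and names for genes called in at least 1 line. COL12A1 and COL6A2 lie at the upper right, LAMA5 at the lower left, and MATN2 and SPOCK1 at the upper left.

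With the 2 lines as replicates, resistant and sensitive libraries were compared by edgeR's quasi-likelihood test with the cell line as a block, two-sided and with Benjamini-Hochberg adjustment. This test leaves 1 residual degree of freedom, and the drugs differ between the lines. Of 13036 genes tested, 0% had an adjusted p under 0.05, and none of the 39 matrix genes tested did; at an unadjusted p under 0.05 there were 7 of 39 (LAMA5, COL6A1, COL6A2, THBS2, VCAN, LOX and PLOD1), where 10.4% of all genes tested passed. LAMA5 had the smallest value (edgeR adjusted p = 0.141, log2 change −1.89, lower in 2 of 2 lines). For COL12A1 the edgeR adjusted p was 0.486 (3.64, higher in 2 of 2 lines), for COL6A2 0.470 (2.95) and for COL6A1 0.332 (1.84). DESeq2 gave an adjusted p under 0.05 for 454 of 13689 genes and for 3 of 41 matrix genes: LAMA5 (2.91e-07), COL6A1 (0.00281) and THBS2 (0.00634).

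Genes around the matrix were read from 5 further lists, beside the 3.21% higher and 8.56% lower over all genes in H1975 and 7.05% and 11% in HCC827. Some passed the filter through their high library alone and so had to differ: P3H3, TLL1, ECM1, ITGB3, LAMC3, TNXB, FREM2 and COL4A6 in HCC827, and LAMA3 and MFAP2 in H1975. Of 24 genes of collagen folding, processing and secretion, 18 were considered in H1975 (1 higher, 1 lower) and 19 in HCC827 (5 higher, 1 lower). P3H3, a collagen prolyl hydroxylase family member, was higher in both lines, by 2.41-fold in H1975 (544 and 1305 counts) and 74.6-fold in HCC827 (4 and 313 counts), and PCOLCE, an enhancer of procollagen processing, was lower in both (2.25-fold and 3.82-fold). The procollagen protease TLL1 (2 and 111 counts) and PCOLCE2 (29 and 212 counts) were higher in resistant HCC827.

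Of 28 further collagens, 3 were considered in each line, with 1 higher and 1 lower in H1975 and 3 lower in HCC827. COL17A1, the transmembrane collagen of hemidesmosomes, was lower in both, by 18.8-fold and 27.1-fold, and COL27A1 was 2.75-fold higher in resistant H1975. COL4A5 and COL4A6, type IV chains of other basement membranes, were 2.33-fold and 2.12-fold lower in resistant HCC827, where COL4A1 was higher. In H1975 COL4A5 had 0.91 and 0.94 FPKM and COL4A6 0.90 and 0.98 FPKM, too low to be considered. Of 14 further laminin and basement membrane genes, 3 of 5 considered were lower in H1975, among them LAMA3 (28.6-fold) and NTN4 (6.28-fold). In HCC827, 4 of 8 were lower and 1 higher, with NTN4 4.83-fold, FREM2 3.35-fold and LAMA3 2.58-fold lower and LAMC3 3.40-fold higher.

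Elastic fibre and other matrix genes were mixed, with 2 higher and 2 lower of 12 considered in H1975 and 3 and 3 of 10 in HCC827. MFAP2 (3.19-fold) and LTBP2 (3.06-fold) were lower and CCN2 (2.21-fold) higher in resistant H1975; TNXB (19.3-fold) and LTBP3 (3.39-fold) were lower and ECM1 (6.58-fold) higher in resistant HCC827. Of 17 receptors for collagen, laminin and fibronectin, 5 of 13 considered were lower in H1975 and none higher, and 5 of 12 were lower and 2 higher in HCC827. The collagen receptor subunit ITGA2 was lower in both lines (5.79-fold and 2.75-fold). ITGA6, a laminin receptor subunit, was also lower in both (3.60-fold and 2.16-fold). ITGA5, the fibronectin receptor subunit, was 3.31-fold lower in HCC827, while ITGB3 was 3.65-fold lower in H1975 and 9.88-fold higher in HCC827.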

How the data were processed

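Messenger RNA of 4 libraries, 1 for each group, was analysed; groups came from the drug response label. HISAT2, Bowtie2, RSEM and the build hg19 are named, without roles, per the submitters' processing notes; no version, setting or use of strand is stated there. The authors deposited, per gene, expected counts, which are not normalized, FPKM values, scaled by length and library total, and an abundance-weighted transcript length. Only values above 0 are listed, the lowest FPKM being 0.01. Symbols came from a RefSeq gene table (GRCh38.p14) by NCBI Gene ID, and neighbours from the same table; 98.6% to 99.8% of genes matched.

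Expected counts were rounded and scaled within each pair by TMM factors (edgeR 4.0.16). Intervals of the log2 ratio are exact (Clopper-Pearson, on the resistant share of the pair's counts) and hold counting error alone. A library at 0 counts was set to a floor of 3 counts. Across the lines, genes listed in all 4 tables and kept by filterByExpr entered edgeR's quasi-likelihood test, adjusted by Benjamini-Hochberg at 0.05; libraries are paired because each resistant one has a sensitive partner of its own cell line. With 1 library per group, p-values measure only the spread between these libraries. DESeq2 (1.42.0) was an alternative. Methods were tested on simulated data, which cannot show the spread between replicate cultures of these lines. Within a pair the abundance-weighted lengths of matrix genes with 20 counts in both libraries differed by at most 7.05%. Genes of the further lists can differ more, such as LAMA3, at 7304 and 9737 bases in sensitive and resistant HCC827. The ratios are of counts and are not scaled by length.

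Genes, gene lists and tests were chosen with earlier results of these data known. Counts and intervals are given for matrix genes called in either line, other genes by level, and at most 3 called genes with the largest ratio from each further list and line. The values of 1 gene that this rule would name are not reported here.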

Additional observations from a re-analysis of the deposited data

Results flagged for a closer look

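MATN2 and SPOCK1 stood out because their calls pointed in opposite directions in the 2 lines. MATN2 had a log2 ratio of −1.47 in H1975 and 5.30 in HCC827. SPOCK1 had −1.59 in H1975 and 2.17 in HCC827. With 1 library per group the difference between the lines was not tested.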

How the results depend on the processing

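Scaling by library totals or by DESeq2 size factors left all 25 calls of matrix genes in place. A filter of 5 FPKM and 100 counts kept 21 of the 25, with the same calls. Without a filter on low values, 4 genes were higher in H1975 in place of 2, the added ones being FBN1 and THBS2, with 10 lower in place of 9; in HCC827 it gave 16 higher in place of 12 and 3 lower in place of 2. A 4-fold threshold left 0 higher and 2 lower in H1975, and 8 higher and 1 lower in HCC827. Shares over all genes are given for the main filter and threshold only. The counts under other filters and thresholds therefore do not show whether matrix genes differ from the rest. On the log2(FPKM + 1) scale, MATN2 in H1975 (−0.93) lost its call, and the other 24 calls stayed. Differences from low levels shrank on that scale: in HCC827 COL12A1 had 2.98 in place of 7.15, COL6A2 3.02 in place of 6.14, MATN2 1.79 in place of 5.30 and LUM 1.76 in place of 4.39, and COL1A2 in H1975 had −1.21 in place of −3.15. No ratio changed direction. In the test over both lines, DESeq2 called 3 matrix genes (454 of all genes) and edgeR 0; fits without the cell line as a replicate block, with DESeq2 size factors, without a count filter, and with absent genes at 0 counts also gave 0. At an unadjusted p under 0.05, edgeR without the block had 0 of 39 matrix genes, where 307 of all 13036 genes tested passed. Leaving out a line leaves no residual degrees of freedom, so that no test is possible. With expected counts in place of FPKM, the ratio of LAMB1 to LAMC1 in HCC827 went from 1.02 and 1.04 to 0.757 and 0.772, and that of PLOD2 to PLOD1 in resistant HCC827 from 0.76 to 1.01; type IV collagen in H1975 left aside, the other chain ratios stayed on the same side of 1. FPKM divides by transcript length and expected counts do not; the cause of the other differences was not tested. Depth limits the HCC827 ratios of COL12A1, COL6A2, MATN2 and LUM, whose sensitive libraries held 3 to 6 counts.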

Other observations

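Further genes of collagen folding are given here by line. Those named were chosen after their values were seen. SERPINH1, which encodes a collagen chaperone of the endoplasmic reticulum, had 91.9 and 128 FPKM in sensitive and resistant H1975 and 1.08 and 0.63 FPKM in HCC827. The prolyl hydroxylase P3H1 had 12.9 and 24.2 FPKM in H1975 (log2 ratio 0.91, not called) and 12.3 and 36.8 FPKM in HCC827 (1.53). P3H2 had 55.5 and 54.3 FPKM in H1975 (−0.03) and 15.5 and 42.7 FPKM in HCC827 (1.42). The peptidyl-prolyl isomerase PPIB was at 228 to 256 FPKM in all 4 libraries. Differences between the lines were not tested.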
